A study of Mus musculus with 3 samples.

Results

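The genes of the fibroblast growth factor (FGF) system were examined in cells sorted from the embryonic mouse kidney for a marker of endothelium. They were chosen by symbol, taking every probe set that the platform annotation assigns to exactly 1 gene among the FGF ligands, their receptors, the FGF carriers, the FRS adaptors, the Sprouty and Spred inhibitors and the FLRT membrane proteins. This gave 41 probe sets of 40 genes, out of 35557 probe sets and 19938 named genes on the array, by a rule on symbols that uses no measured value. Frs2 was not analysed here.

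The cells were GFP-positive cells sorted from kidneys of Tie2-GFP transgenic CD-1 mice, carrying Tg(TIE2GFP)287Sato, at 15.5 days post coitum (Theiler stage 23). Cells of 4 to 5 embryonic kidneys were pooled for each of 3 samples, and each was hybridized to 1 Affymetrix Mouse Gene ST array after 1 round of RNA amplification. All 3 belong to a single group and carry the same transgene, and no cells lacking GFP and no other sample type were analysed here, so levels were set against a fixed level and not against another tissue. The transgene is driven by the promoter of Tek, which is also active in some blood and macrophage cells, so the sort does not by itself separate these from endothelium. As the cells were measured in bulk, fewer cells carrying a transcript and less transcript per cell cannot be told apart.

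FGF signalling begins when a secreted ligand, held by heparan sulfate, binds a receptor tyrosine kinase of the FGFR family. The receptor acts through the docking proteins FRS2 and FRS3 on the RAS-RAF-MEK-ERK kinases, and ERK activity induces Sprouty and Spred proteins, which in turn dampen the same kinases. In the developing kidney the pathway is best known for survival of the nephron progenitors, branching of the ureteric bud and patterning of the stroma, and in blood vessels for growth and for keeping junctions intact.

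A reference for the levels was taken from the methods of the study, where probe sets under a raw signal of 100 are removed. This level is 6.64 on the log2 scale of the deposited values, and the mean of the 3 arrays was tested against it on both sides with limma over all probe sets. Equal values in at least 2 arrays were found in 36 of the 41 member probe sets (87.8%, against 55.9% of all probe sets), and 12 were equal in all 3, so that many members have an SD of 0.00 that is no measure of biological spread. Each call is therefore given by limma's moderated spread and by a single SD of 0.491 pooled over all probe sets, called the pooled spread. In what follows, a gene called above or below by both spreads is the firmer statement.

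Members lay to either side of the level, with most of the Sprouty, Spred and FLRT genes above it and 10 of 18 secreted ligands below it. Of the 40 genes, 17 were above the level and 18 below by the moderated spread, and 9 were above and 14 below by the pooled spread. Over all named genes, 41.6% were above and 41.6% below by the moderated spread, and 36.0% were above and 32.5% below by the pooled spread, so that the share of members above was near that of all genes by the moderated spread and under it by the pooled spread. A signal of 100 or more in all 3 arrays was found for 20 of the 40 members and for 47.3% of all genes. The genes above by both spreads were Fgfr1, Frs3, Spry1, Spry4, Spred1, Spred2, Spred3, Flrt2 and Flrt3, that is a receptor, an adaptor, 5 inhibitors and 2 membrane proteins, and no ligand. Olfactory and vomeronasal receptor genes, which these cells are not known to use and which were taken as background, had a median of 4.82 log2 and a 95th percentile of 6.41 log2.

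**Figure D1:**
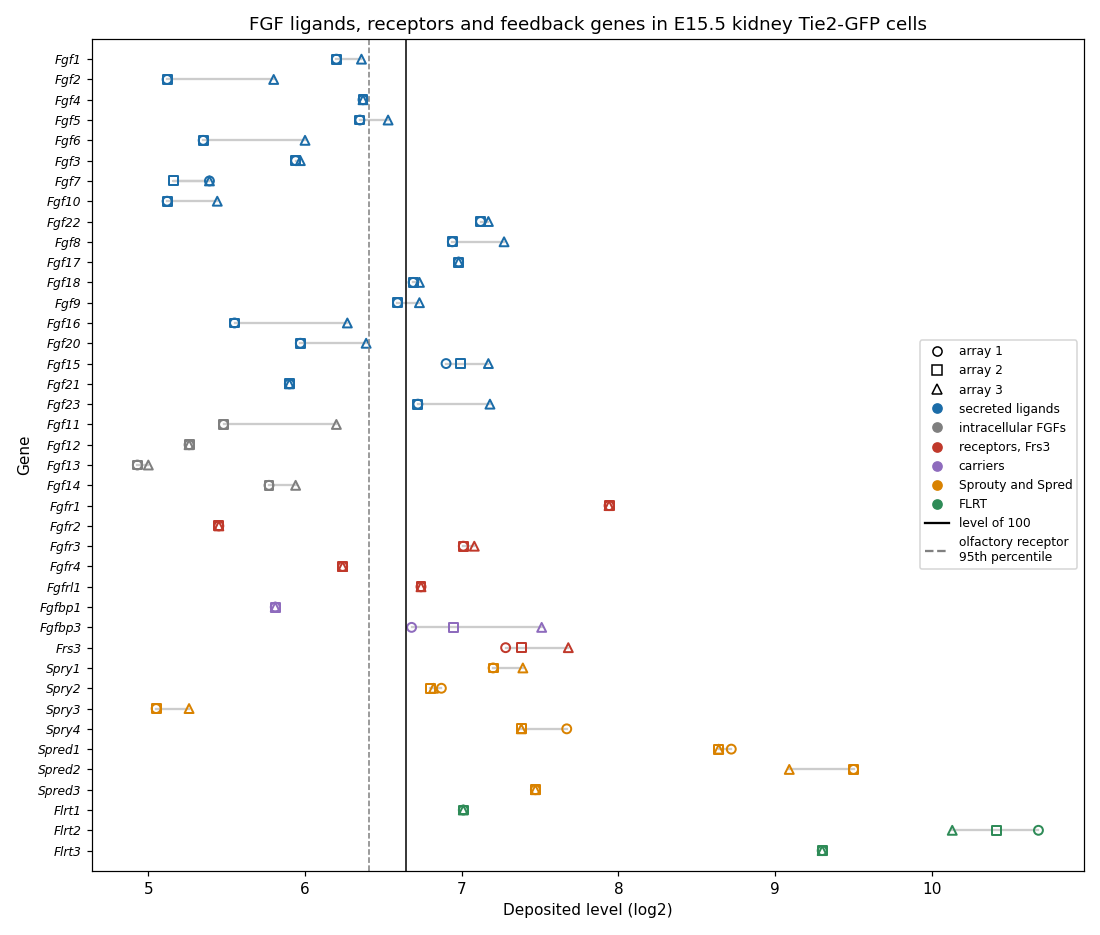
Deposited log2 level (horizontal axis) of the 40 genes (vertical axis, ordered by role) in arrays 1 (circle), 2 (square) and 3 (triangle), with the level of 100 as a solid line and the 95th percentile of olfactory receptor genes, 6.41, as a dashed line. Flrt2, Flrt3, Spred1, Spred2 and Fgfr1 are the 5 genes over 200 in every array, beside 4445 of all 19938 genes at 200 or more. The secreted ligands lie on both sides of the level.

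The secreted ligands were split by the level, and none was above it by both spreads. Of 18 measured genes 4 were above and 10 below by the moderated spread, beside 41.6% of all genes above and 41.6% below. By the pooled spread 0 were above and 7 below, beside 36.0% of all genes above and 32.5% below. With the pooled spread, 1 was above at an unadjusted p under 0.05. Their median was 6.31 log2, against 6.67 over all genes.

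The FGF1 subfamily, and Fgf7 and Fgf10 of the FGF7 subfamily, were below the level. Fgf2, long used as a growth factor for endothelial cells, measured 5.12, 5.12 and 5.80 log2 in arrays 1, 2 and 3 and was below the level by both spreads (limma, adjusted p = 0.0211). Fgf1, which binds all of the signalling receptors, measured 6.20, 6.20 and 6.36 log2 and was below by the moderated spread only (limma, adjusted p = 0.0134). Fgf7 and Fgf10, mesenchymal ligands of the epithelial form of Fgfr2, averaged 5.32 ± 0.13 and 5.23 ± 0.18 log2 (SD, n = 3) and were below by both spreads. None of these 4 genes reached the level in any array.

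Of the other 14 ligands, 7 were also below by at least 1 spread. Fgf3 (5.95 ± 0.01 log2), Fgf6 (5.56 ± 0.38) and Fgf21, a hormone of liver and fat (5.90 ± 0.00), were below by both spreads (SD, n = 3). Fgf4 (6.37 ± 0.00), Fgf5 (6.41 ± 0.10) and Fgf20, a survival signal of nephron progenitors (6.11 ± 0.24), were below by the moderated spread only. Fgf16, at 5.55, 5.55 and 6.27 log2, was below by the pooled spread only.

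A few ligands sat just above the level, none of them by more than 0.49 on the log2 scale. Fgf22 measured 7.12, 7.12 and 7.17 log2 (limma, adjusted p = 0.00109), and Fgf17, a member of the FGF8 subfamily, 6.98 in every array (limma, adjusted p = 0.000156). Fgf15, the mouse counterpart of the human gut hormone FGF19, measured 6.90, 6.99 and 7.17 log2 (limma, adjusted p = 0.037), and Fgf18 measured 6.69, 6.69 and 6.73 (limma, adjusted p = 0.0331). By the pooled spread none of these passed. Computed with that spread and without limma, adjusted p was 0.113 for Fgf22, 0.309 for Fgf17, 0.243 for Fgf15 and 0.916 for Fgf18.

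The remaining ligands were on neither side of the level. Fgf8, which is needed for nephron formation, measured 6.94, 6.94 and 7.27 log2, and Fgf23, the phosphate hormone of bone, 6.72, 6.72 and 7.18 log2. Fgf9, a signal from ureteric bud and nephron progenitors, measured 6.59, 6.59 and 6.73 log2, with a mean on the level itself. In all 3 genes the highest value was in array 3. Of 12 progenitor and early nephron markers, 6 were above the level and 4 below by the moderated spread, and 4 were above and 2 below by the pooled spread, beside 41.6% and 36.0% of all genes above, with summed linear signals of 1427, 1468 and 1345 in arrays 1, 2 and 3. Their part in the values of Fgf8, Fgf9 and Fgf20 was not tested.

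The count of ligands changed when an array was left out, as did the counts over all probe sets. With all 3 arrays, 12629 of 35557 probe sets were above and 14826 below by the moderated spread. The counts were 8424 and 9023 without array 1, 7712 and 8738 without array 2, and 11688 and 15179 without array 3. Arrays 1 and 2 had equal values in 50.6% of all probe sets, which understates the spread without array 3. Without array 1 or without array 2 only 2 ligands were above, Fgf22 and Fgf17, and 4 below, and without array 3 the counts were 5 above and 11 below. Fgf15 lost its call without any of the 3 arrays, at means of 7.08, 7.04 and 6.94 log2 without arrays 1, 2 and 3, and Fgf18 lost it without array 1 or 2, at 6.71 log2, and with centred or quantile normalized arrays. Of the ligands below, Fgf1, Fgf2, Fgf5, Fgf6, Fgf10 and Fgf20 lost the moderated call without array 1 or 2, and Fgf7 without array 3.

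The intracellular FGF homologous factors, which are not secreted and bind voltage-gated sodium channels of nerve and muscle, were low throughout. All 4 were below by both spreads, with Fgf11 at 5.72 ± 0.41 log2, Fgf12 at 5.26 ± 0.00, Fgf13 at 4.95 ± 0.04 and Fgf14 at 5.83 ± 0.10 (SD, n = 3). Over all genes 41.6% were below by the moderated spread and 32.5% by the pooled spread. Fgf11 lost its call by the moderated spread without array 1 or 2.

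Among the receptors, Fgfr1 was the member above the level by both spreads. Fgfr1 responds to most paracrine ligands, and to endocrine ligands with a klotho co-receptor. It measured 7.94 log2 in every array, a linear signal of 246 (limma, adjusted p = 1.97e-05). By the pooled spread, computed without limma, its adjusted p was 1.05e-05. Fgfr2, the receptor of the ureteric bud and stroma, measured 5.45 log2 in every array and was below by both spreads (limma, adjusted p = 1.72e-05). These calls held in all other settings that kept the level at 100.

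The other receptors lay within 0.40 log2 units of the level. Fgfr3 measured 7.01, 7.01 and 7.08 log2 and was above by the moderated spread (limma, adjusted p = 0.0031), with adjusted p = 0.224 by the pooled spread. Fgfr4 was at 6.24 log2 in every array and was below by the moderated spread only. Fgfrl1, a receptor that lacks the kinase and is needed for nephron formation in mice, was at 6.74 in every array, 0.09 above the level, and passed by the moderated spread only (limma, adjusted p = 0.00173). It lost the call without array 2 and when the arrays were centred on their medians or quantile normalized.

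The carriers and the adaptor showed a similar mixture. Fgfbp1, which releases FGFs from heparan sulfate, measured 5.81 log2 in every array and was below by both spreads. Fgfbp3 measured 6.68, 6.95 and 7.51 log2, the widest range of any member at 0.82, and was on neither side. Frs3, a docking adaptor, measured 7.28, 7.38 and 7.68 log2 and was above by both spreads (limma, adjusted p = 0.0181). By the pooled spread, computed without limma, its adjusted p was 0.00772. Frs3 lost the moderated call without any of the 3 arrays, at 7.53, 7.48 and 7.33 log2 without arrays 1, 2 and 3.

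The Sprouty and Spred inhibitors were mostly above the level. Of 7 genes, 6 were above and 1 below by the moderated spread, and 5 were above and 1 below by the pooled spread, beside 41.6% and 36.0% of all genes above. All 3 Spred genes, whose products block the activation of RAF by RAS, were above by both spreads and in every other setting that kept the level at 100.

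Spred2 was measured by 2 probe sets that lay on the same side of the level. The first measured 9.41, 9.41 and 8.87 log2 (limma, adjusted p = 0.00399) and the second 9.59, 9.59 and 9.32 (limma, adjusted p = 0.000918). Their mean, which was not itself tested, was 9.36 ± 0.23 log2 (SD, n = 3), a linear signal of 659. Both were lowest in array 3. Spred1, the gene mutated in Legius syndrome in humans, measured 8.72, 8.64 and 8.64 log2 (limma, adjusted p = 0.000186), and Spred3 measured 7.47 in every array (limma, adjusted p = 3.42e-05).

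The Sprouty genes were divided. Spry4 measured 7.67, 7.38 and 7.38 log2 (limma, adjusted p = 0.0108) and Spry1, which restrains RET signalling in the ureteric bud, 7.20, 7.20 and 7.39 log2 (limma, adjusted p = 0.00828). Both were above by the pooled spread as well, computed without limma, with adjusted p = 0.00585 for Spry4 and 0.0417 for Spry1. Spry2 measured 6.87, 6.80 and 6.82 log2 and was above by the moderated spread only (limma, adjusted p = 0.0125), and Spry3 measured 5.05, 5.05 and 5.26 log2 and was below by both.

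The Sprouty calls depended on which array was left out, as did calls over all probe sets. Without array 2, which leaves 3 of the 7 inhibitors above, Spry1 (7.30 log2), Spry2 (6.85) and Spry4 (7.52) all lost their calls. Spry1 also lost its call without array 1, at 7.30 log2, and Spry2 and Spry4 without array 3, at 6.83 and 7.52 log2. In each case the gene stayed over 100 in both arrays that were left.

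The FLRT genes encode membrane proteins with leucine-rich repeats that bind FGF receptors and act as guidance ligands of UNC5 and latrophilin receptors. All 3 were above the level by the moderated spread, and Flrt2 and Flrt3 by the pooled spread too. Over all genes 41.6% were above by the moderated spread and 36.0% by the pooled spread. Flrt2 measured 10.68, 10.41 and 10.13 log2 (limma, adjusted p = 0.00151) and Flrt3 measured 9.30 in every array, a linear signal of 632 (limma, adjusted p = 9.41e-06). Their means lay 3.76 and 2.66 above the level on the log2 scale. Flrt1 was at 7.01 log2 in every array, with adjusted p = 0.000133 by the moderated spread of limma. By the pooled spread, computed without limma, its adjusted p was 0.261.

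Upstream sequence is shown for Flrt2, Flrt3, Spred1 and Spred2, the members over 200 in every array that have a start site in the tables used. Sequences were taken from RefSeq (build GRCm38.p6), in which 30 of the 40 members had at least 1 start site, 37 in all. The 120 bases before the annotated start are given 5′ to 3′ on the strand of the gene, with capitals marking GGAA or its reverse complement TTCC, the core bound by ETS factors, a search added after the levels were known. Flrt2 lies at chr12:95692106-95692225 (plus strand), Flrt3 at chr2:140671477-140671596 (minus strand), Spred1 at chr2:117120951-117121070 (plus strand) and Spred2 at chr11:19924322-19924441 (plus strand).
Flrt2: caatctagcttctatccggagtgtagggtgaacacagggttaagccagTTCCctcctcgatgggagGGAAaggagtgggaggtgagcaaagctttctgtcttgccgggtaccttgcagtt
Flrt3: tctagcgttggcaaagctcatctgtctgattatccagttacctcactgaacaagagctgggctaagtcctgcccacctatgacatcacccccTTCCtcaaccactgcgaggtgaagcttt
Spred1: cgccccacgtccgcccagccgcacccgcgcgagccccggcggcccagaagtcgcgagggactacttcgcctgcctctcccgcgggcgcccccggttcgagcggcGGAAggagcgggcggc
Spred2: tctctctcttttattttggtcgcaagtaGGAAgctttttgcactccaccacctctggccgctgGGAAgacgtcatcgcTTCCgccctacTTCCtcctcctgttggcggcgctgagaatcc

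The core was found 4 times before Spred2, 2 times before Flrt2 and 1 time each before Flrt3 and Spred1. At least 1 core is present in 73.4% of all 32851 windows of this length, so its presence is common.

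A longer sequence was also searched. Capicua is a repressor that ERK signalling removes from the promoters of ETV and feedback genes, and it binds the octamers TGAATGAA, TGAATGGA, TCAATGAA and TCAATGGA. On either strand of the 250 bases before the start, 1 of these was found in 5 of the 37 member windows and in 3.19% of all windows. The genes were Spred3 and Spry2, above the level, Fgf21, below it, and Fgf23 and Fgfbp3, on neither side. The ETS sequence CCGGAAGT was found before Fgfrl1 alone among the members and in 2.88% of all windows. The stretches holding them in Spred3 at chr7:29168648-29168707 (minus strand), Spry2 at chr14:105896850-105896909 (minus strand) and Fgfrl1 at chr5:108694149-108694208 (plus strand) are given with the match in capitals, which in Spry2 is the reverse complement of TCAATGAA. The match begins 10 bases before the start in Spred3, 54 in Spry2 and 48 in Fgfrl1.
Spred3: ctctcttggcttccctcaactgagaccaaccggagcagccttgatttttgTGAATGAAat
Spry2: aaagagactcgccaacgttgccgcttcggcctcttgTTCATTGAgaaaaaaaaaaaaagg
Fgfrl1: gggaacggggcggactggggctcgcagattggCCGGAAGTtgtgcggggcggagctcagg

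Most other genes of the pathway were above the level. Of 75 measured genes in 7 lists, 50 were above and 11 below by the moderated spread, and 47 were above and 5 below by the pooled spread. Over all genes, 41.6% were above and 41.6% below by the moderated spread, and 36.0% and 32.5% by the pooled spread. The same shares apply to each list below. Without array 2, 29 were above by the moderated spread, where the count over all probe sets also fell, from 12629 to 7712. Their median was 7.55 log2, against 6.67 over all genes.

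The intracellular part of the pathway was well represented. Of 11 adaptors and exchange factors, 8 were above by the moderated spread and 11 by the pooled spread, beside 41.6% and 36.0% of all genes. Among them the adaptor Grb2 was at 8.15 ± 0.00 log2, Gab1 at 8.30 ± 0.50 and the RAS activator Sos1 at 7.80 ± 0.40, while Gab2, at 7.68 ± 0.65, was above by the pooled spread only (SD, n = 3). Of 8 genes of the RAS-RAF-MEK-ERK list, 7 were above by each spread and 6 by both, with Nras at 11.02 ± 0.34, Araf at 8.31 ± 0.34 and Map2k1 at 7.51 ± 0.02, and Braf, at 7.87 ± 0.71, above by the pooled spread only.

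Transcription factors and early genes that ERK induces or acts on were on both sides by the moderated spread. Of 17 such genes 11 were above and 3 below by the moderated spread, and 13 were above and 0 below by the pooled spread, where 0 were below at an unadjusted p under 0.05 too. Etv1, an ETS factor, was above by both through 1 of its 2 probe sets, at 7.65 ± 0.22 log2, with the other, at 7.30 ± 0.57, above by the pooled spread only. Ets1 was above by both at 8.61 ± 0.41 (SD, n = 3). Etv5 had 2 probe sets that disagreed, the first below by the moderated spread at 6.47 ± 0.00 log2 and the second above by the pooled spread at 7.30 ± 0.75. Etv4, at 6.24 ± 0.02 log2, was below by the moderated spread only.

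The other feedback inhibitors were above the level in 10 of 12 genes by the moderated spread, beside 41.6% of all genes. By the pooled spread 5 were above, which is near the 36.0% of all genes, and none was below by either spread. Dusp6, the ERK phosphatase induced by FGF signalling in many embryonic tissues, measured 8.34, 8.16 and 7.87 log2 and was above by both spreads (limma, adjusted p = 0.00695). Il17rd, or Sef, a membrane inhibitor of FGF signalling, had 2 probe sets that disagreed, the first below by the moderated spread at 6.13 ± 0.00 log2 and the second above by both spreads at 8.03 ± 0.23 (SD, n = 3), and the gene was counted as above. Dusp1 was above by both at 8.40 ± 0.04, while Dusp2 (7.16 ± 0.07) and Dusp5 (7.01 ± 0.00) were above by the moderated spread only and Dusp4 (6.76 ± 0.39) was on neither side.

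Genes for heparan sulfate, which holds the ligands, were mixed, beside 41.6% and 36.0% of all genes above by the moderated and the pooled spread. Of 13 enzymes of its synthesis and editing, 7 were above and 4 below by the moderated spread and 6 were above and 3 below by the pooled spread, with the polymerase subunit Ext2 at 8.47 ± 0.35 log2 above by both spreads and Ext1, at 8.25 ± 0.82, by the pooled spread only (SD, n = 3). Extl3 (7.01 ± 0.00) and Ndst2 (7.09 ± 0.02) were above by the moderated spread only. Of 12 core proteins, 7 were above and 2 below by the moderated spread and 5 were above and 0 below by the pooled spread (1 below at an unadjusted p under 0.05), with Sdc3 (7.49 ± 0.04) and Sdc4 (7.55 ± 0.00) above by both spreads, Sdc1 (6.95 ± 0.00) by the moderated spread only and Sdc2 (6.16 ± 0.27) on neither side. Both klotho co-receptors of the endocrine ligands, Kl at 5.67 ± 0.00 and Klb at 5.74 ± 0.43, were below by both spreads.

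**Figure D2:**
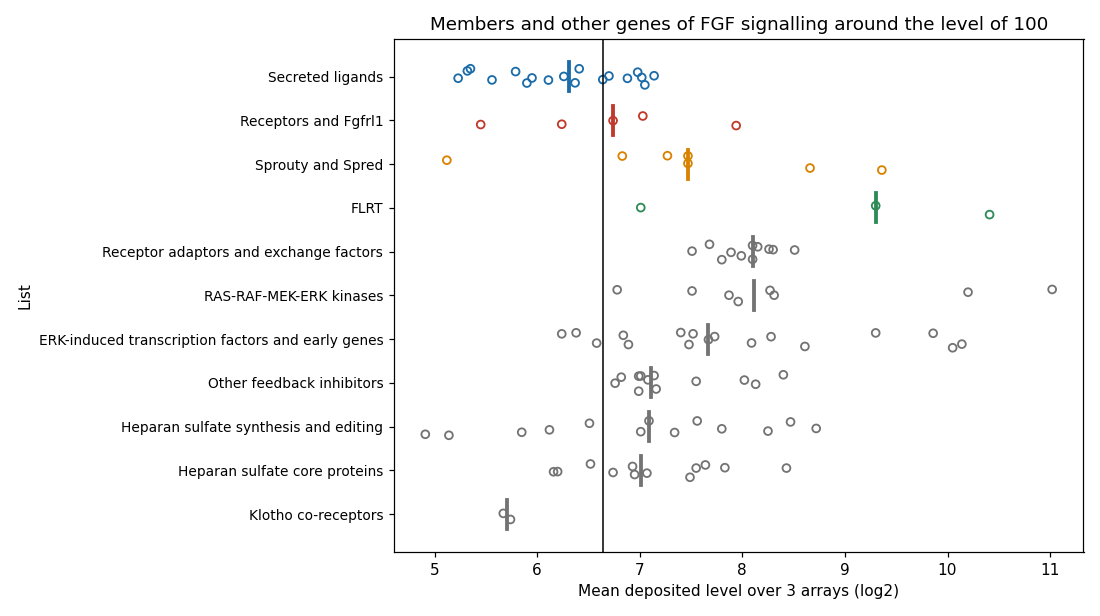
Mean deposited log2 level over 3 arrays (horizontal axis) of each gene (open circle) by list (vertical axis), with the median of each list as a bar and the level of 100 as a vertical line. The median of the secreted ligands, 6.31, lies left of the level, and those of the Sprouty and Spred genes, 7.47, and the FLRT genes, 9.30, lie right of it.

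The 3 pools were not alike, which touches members with a wide range. All 15 pan-endothelial markers were over 100 in every array, with Tek at 11.12, 10.97 and 10.13 log2, but all were lowest in array 3, where their summed linear signal was 11910 against 21850 and 19310 in arrays 1 and 2. The summed signal of 12 macrophage markers was 1425, 3516 and 5430 in arrays 1, 2 and 3. The whole array differed as well, since of the genes with a mean of at least 100, 5128 of 10098 were lowest in array 3, and of those with a mean under 100, 5847 of 9840 were highest in it.

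Members followed this pattern under the level of 100 but not over it. Of the 20 members with a mean under 100, 13 were highest in array 3 and none was lowest in it, with a median difference of 0.15 log2 from the mean of arrays 1 and 2, against 0.12 for all genes in that range. Fgf16, Fgf11, Fgf2 and Fgf6 were 0.72, 0.72, 0.68 and 0.66 log2 higher in array 3. Of the 20 members with a mean of at least 100, 9 were highest and 2 lowest in array 3. Of all 10098 genes in that range, 1715 were highest and 5128 lowest. The median difference was 0.00 log2 for these members, against -0.08 for all genes in that range. The 2 lowest members were Flrt2 and Spred2, each 0.41 log2 lower, while the median of the 15 endothelial markers was 0.93 lower. Flrt3, Fgfr1 and Spred3 had the same value in every array. Fgfbp3 and Frs3 were 0.69 and 0.35 log2 higher in array 3, where 9 of the 12 macrophage markers were also highest. The summed linear signal of 4 platelet markers was 895.1, 924.8 and 1905 in arrays 1, 2 and 3, and that of 12 renal stroma and mural markers was 1391, 1420 and 1649. It was not highest in array 3 for 7 red cell markers (922.2, 1341 and 1323) or 12 ureteric bud markers (1197, 1137 and 1150). The part of RNA from macrophages or these other cell types in the differences of array 3 was not tested.

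**Figure D3:**
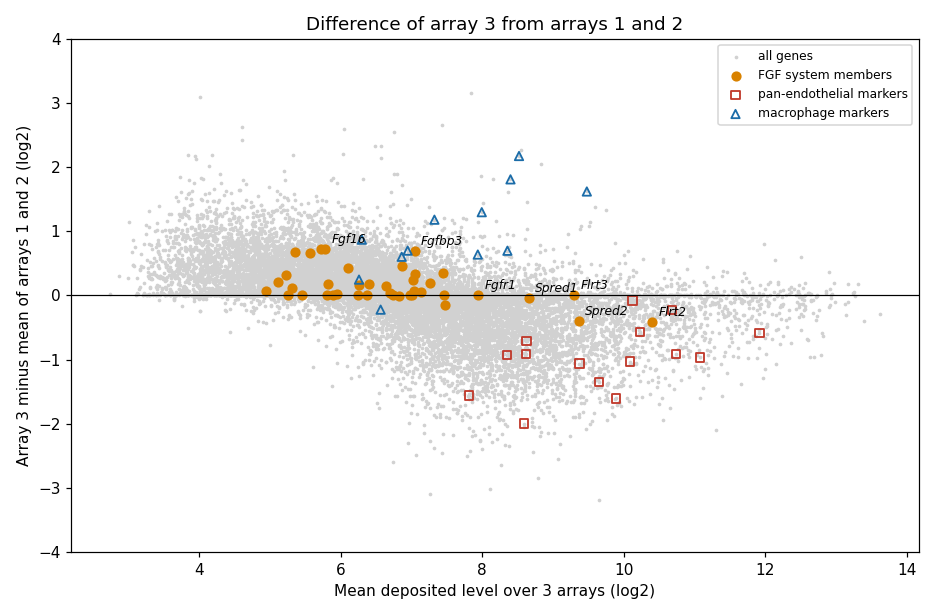
Difference of array 3 from the mean of arrays 1 and 2 (vertical axis, log2) against the mean level over 3 arrays (horizontal axis, log2) for all named genes (grey), the 40 members (filled circles), 15 endothelial markers (squares) and 12 macrophage markers (triangles). Flrt2 and Spred2 lie 0.41 under zero and Fgfbp3 0.69 over it, and 1 gene lies outside the plotted range.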

How the data were processed

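The authors deposited log2 probe set levels of 3 arrays, for which the submitters' notes list Expression Console without a version and the study's methods name RMA in GeneSpring. Which of these summarized the table was not given in the sources used here. Summaries that return equal values in several arrays understate the spread, so calls near the level are weak. Of 35557 probe sets, 21789 had exactly 1 gene symbol, updated through RefSeq gene identifiers. A gene's level was the mean of its probe sets. A gene was above the level if any probe set was and below only if all were.

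Means were tested against log2(100) with an intercept-only fit in limma 3.58.1 (R 4.3.3), with 1 one-sided test for each side, adjusted by Benjamini-Hochberg over every probe set and called at 0.05. The prior of the moderated fit was weak, with 0.41 degrees of freedom and an SD of 0.0159. The pooled test was a t-test of the same means with the SD of all probe sets, computed without limma. Both tests were also run on simulated data with known levels. Whether the pools held separate litters is not in the labels. The p-values then reflect only the spread between these arrays, which may be technical, and precision is limited by their number. Probe sets differ in affinity, so no gene's level was tested against another's.

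All members are named, with the first 4 measured genes of each other pathway list and the ERK targets Etv4, Etv5, Dusp6 and Il17rd. Members and lists were chosen with earlier results of these data known. Alternatives were the spread, centring, quantile normalization, another level, a filter on dim probe sets, a trended robust fit and leaving out each array. Background correction could not be varied, since no probe-level signals were used here. Motifs were searched in RefSeq start site windows with Python 3.11.15.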

Additional observations from a re-analysis of the deposited data

How the results depend on the processing

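Calls close to the level depended on the spread. By the pooled spread the members above were 9, the secreted ligands above 0, the receptors above 1 and below 1, and the other pathway genes below 5. At a level of 200, 5 members were above and 32 below, with 0 ligands above and 18 below, 1 receptor above and 4 below, 2 Sprouty and Spred genes above and 4 below, and 13 other pathway genes above and 34 below. Counts over all probe sets fell likewise, with 5510 of 35557 above and 22955 below at 200. At that level Fgf22 (7.14), Fgf17 (6.98), Fgf18 (6.70), Fgf15 (7.02), Fgfr3 (7.03), Fgfrl1 (6.74), Spry1 (7.27), Spry2 (6.83), Spred3 (7.47) and Flrt1 (7.01 log2) turned from above to below, as a higher level must place genes between both levels. At the olfactory receptor 95th percentile, 6 ligands were above and 6 below, and 59 other pathway genes were above and 7 below. Over all probe sets, 14841 were above and 12422 below at that level. Leaving out 1 array gave 10 to 15 members above and 11 to 19 below, 2 to 5 ligands above and 4 to 11 below, 3 to 5 Sprouty and Spred genes above, and, with 29 without array 2, 29 to 44 other pathway genes above. Fits on 2 arrays have 1 residual degree of freedom per probe set. They placed 7712 to 11688 of all probe sets above, against 12629 with 3 arrays. Centring, quantile normalization, leaving out dim probe sets and the trended robust fit kept every count within 1.5 times. Across the 9 settings at 100, 6 members were above in all, namely Fgfr1, Spred1, Spred2, Spred3, Flrt2 and Flrt3, and 8 were below in all. The share of all genes that kept their call in all 9 settings was not counted, so these counts have no background beside them. No member probe set had several symbols, so that alternative gave no value. No paired analysis was possible because the series holds 1 group.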

Other observations

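Several members are neighbours in the genome by the RefSeq gene order. The pairs below were picked by name, not by a search of all neighbours. Over all genes 41.6% were above and 41.6% below by the moderated spread, so calls that differ within a pair are common. Fgf2, below the level by both spreads, is separated by 2 protein-coding genes, Nudt6 and Spata5, from Spry1, which was above by both. Fgf1, below by the moderated spread, is likewise separated by 2 protein-coding genes from Spry4, which was above by both. Fgf6 and Fgf23 are adjacent, at 5.56 ± 0.38 log2, below by both spreads, and 6.88 ± 0.27 log2, on neither side (SD, n = 3). Fgf3 and Fgf4, at 5.95 ± 0.01 and 6.37 ± 0.00 log2, are adjacent to each other and were below by the moderated spread, while Fgf15, next to Fgf4, was above by the moderated spread at 7.02 ± 0.14 log2.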
